A study of Mus musculus with 16 samples.

Results

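Goblet cells are the secretory cells of the intestinal epithelium that make mucus, and 10 genes of this cell type and its mucus were followed through 16 ileum libraries: Muc2, Tff3, Fcgbp, Clca1, Agr2, Spdef, Zg16, Muc13, Spink4 and Atoh1. They were matched by gene symbol, and all 10 were found among the 24940 genes of the count table. The libraries were made from the terminal ileum of C57BL/6 mice, in 4 groups of 4 made by genotype (WT or LKO) and sex. Both genotypes were Bcl6 fl/fl: loxP sites flank part of Bcl6, which encodes a transcriptional repressor, and mice with these alleles alone are called WT here. In LKO mice an Albumin-Cre transgene removes the flanked part in hepatocytes, so the deletion lies in the liver and the measurement in the gut. Age is not given in the sources used here. The ileal segment was the last centimetre before the cecum, and the values are reads counted over the exons of each gene, given as CPM, depth-normalised read counts whose library totals were scaled by trimmed means.

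The mucus of the small intestine is a loose gel built on MUC2, a large gel-forming mucin that is folded and cross-linked in the endoplasmic reticulum, heavily O-glycosylated in the Golgi apparatus, packed into granules and released with small partner proteins. ATOH1 commits an epithelial progenitor to the secretory lineage, and SPDEF drives its maturation as a goblet cell. In the ileum, mucus keeps bacteria away from the epithelium.

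The libraries held between 15739601 and 20467119 gene counts, with 60324336 in female LKO replicate 1. No 2 replicates of a group were identical, and all 24 pairs differed by more than counting noise, by a chi-square of 9.26 or more for each degree of freedom. Xist and Ddx3y matched the labelled sex in 16 of 16 libraries. The ileal bile acid genes Slc10a2 and Fabp6 were present throughout, at no less than 426 and 2690 CPM. Bcl6 itself, at 9.24 to 26.1 CPM in the ileum, is no check of a deletion made in hepatocytes. It lay at 9.24 to 15.1 CPM in female WT and 15.2 to 26.1 CPM in female LKO. In males it lay at 14 to 17.9 CPM in WT and 17.2 to 21.9 CPM in LKO. The adjusted p of edgeR's quasi-likelihood test was 0.285 in females and 0.879 in males. Libraries differed in neighbouring tissue: the sum of 10 B cell and follicle markers ran from 15.9 to 117 CPM in 14 libraries and stood at 201 and 384 CPM in female LKO replicates 2 and 3. The sum of 6 cecum and colon markers lay between 27.2 and 78.7 CPM in 11 libraries and between 303 and 1217 CPM in male WT replicates 3 and 4, male LKO replicate 2 and female WT replicates 1 and 4; where it was high, most of it was Car1, and Hoxd13, a marker of the distal gut, had a count of 0 in all 16.

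Together the 10 genes took between 2.22% and 2.71% of the gene counts of a library, with a median of 2.53%. The mean share was 2.65% ± 0.0799 in WT males and 2.49% ± 0.0838 in LKO males, and 2.57% ± 0.071 in WT females and 2.39% ± 0.118 in LKO females (SD, n = 4). The lowest count of any member in any library was 765, for Atoh1. Muc2 ranked 7 among all genes by mean CPM and Fcgbp ranked 9, while Spdef and Atoh1 ranked 4199 and 4246.

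The members lie on 7 chromosomes of mm10, and the intervals given are whole genes, of which the exons were counted. Muc2 (chr7:141690340-141754694, plus strand), Fcgbp (chr7:28071236-28120864, plus) and Zg16 (chr7:127050156-127052675, minus) share chromosome 7 without being neighbours. Spdef (chr17:27714447-27728951, minus) and Tff3 (chr17:31125306-31129611, minus) share chromosome 17. The others are Clca1 (chr3:145004537-145032776, minus), Spink4 (chr4:40920056-40931395, plus), Atoh1 (chr6:64729125-64731245, plus), Agr2 (chr12:35992925-36004081, plus) and Muc13 (chr16:33794037-33819927, plus). Muc13 is overlapped on the other strand by Gm15657, an antisense gene, and whether the counting used the strand is not stated, so their reads may not be separable.

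RefSeq promoters of GRCm38, the assembly of mm10, were matched by symbol for 6 of the 10 members. The 250 bases before the start of Muc2 and Fcgbp are shown because these were the 2 members with the lowest levels in female LKO relative to female WT, and those of Agr2 and Muc13 because these were the 2 members that separated WT males from WT females. In Muc2 and Fcgbp the capitals mark CAGCTG, an E-box of the kind bound by ATOH1; it reads the same on both strands, and 13.0% of the 32851 promoter windows of this length hold it. In Agr2 and Muc13 the capitals mark CATAAA, the reverse complement of TTTATG, a core of CDX2 sites; TTTATG is held on either strand by 10.8% of the windows. The motifs share no overlapping match in these sequences.
Muc2, chr7:141690090-141690339, plus strand: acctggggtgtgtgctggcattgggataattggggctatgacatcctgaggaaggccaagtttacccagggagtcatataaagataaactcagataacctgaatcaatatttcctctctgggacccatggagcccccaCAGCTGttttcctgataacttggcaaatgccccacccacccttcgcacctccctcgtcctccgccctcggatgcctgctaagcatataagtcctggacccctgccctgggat
Fcgbp, chr7:28070986-28071235, plus strand: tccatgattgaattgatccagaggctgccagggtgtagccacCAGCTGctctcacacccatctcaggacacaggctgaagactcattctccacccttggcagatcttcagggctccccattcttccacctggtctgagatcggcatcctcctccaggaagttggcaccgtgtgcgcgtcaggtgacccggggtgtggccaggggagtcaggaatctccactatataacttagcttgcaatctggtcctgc
Agr2, chr12:35992675-35992924, plus strand: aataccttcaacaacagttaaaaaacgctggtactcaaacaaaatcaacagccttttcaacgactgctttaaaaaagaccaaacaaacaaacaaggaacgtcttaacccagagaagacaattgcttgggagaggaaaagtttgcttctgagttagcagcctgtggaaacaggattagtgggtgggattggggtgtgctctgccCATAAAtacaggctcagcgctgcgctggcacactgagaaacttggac
Muc13, chr16:33793787-33794036, plus strand: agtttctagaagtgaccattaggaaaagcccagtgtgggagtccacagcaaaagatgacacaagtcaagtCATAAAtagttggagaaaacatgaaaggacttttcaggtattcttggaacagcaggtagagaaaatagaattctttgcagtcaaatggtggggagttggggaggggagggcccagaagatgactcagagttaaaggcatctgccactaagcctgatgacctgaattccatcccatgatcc

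The E-box begins 112 bases before the start of Muc2 and 208 bases before that of Fcgbp. The CDX2 core begins 47 bases before the start of Agr2, 180 before that of Muc13 and 191 before that of Spdef. A further motif, TATAAA, was searched on both strands and is held by 12.4% of the windows; among the 6 members it was found in Muc2, 174 bases before the start. These are matches of letters and not measured sites, and Atoh1 held none of the 3.

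Levels per length (RPKM, which divides CPM by the exon length in kilobases) spread over 2 tiers. Zg16, a lectin that binds Gram-positive bacteria in mucus, was highest at a mean of 4543 ± 627 RPKM (SD over 16 libraries), followed by the trefoil factor Tff3 at 2756 ± 171 RPKM, a peptide of mucosal repair, and Spink4, a Kazal-type protease inhibitor of goblet granules, at 2204 ± 188 RPKM. The granule metalloprotease Clca1 and the membrane mucin Muc13 came next at 1414 ± 196 and 1400 ± 173 RPKM and were not separable, since Clca1 was the higher of the pair in 6 of 16 libraries. Agr2, the disulfide isomerase needed to fold MUC2, stood at 1116 ± 128 RPKM and Muc2 at 831 ± 65.3 RPKM. Fcgbp, a mucus protein named for binding of IgG Fc, stood at 676 ± 76 RPKM. The 2 transcription factors formed the low tier, Spdef at 28.4 ± 2.16 RPKM and Atoh1 at 24.1 ± 1.71 RPKM, and Fcgbp exceeded Spdef at least 19.3 times in every library. The length used for Muc2, 6680 bases, is that of the deposited table, while the longest Muc2 transcript of GENCODE vM21 has 2926 bases, so its place in this order is uncertain.

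**Figure D1:**
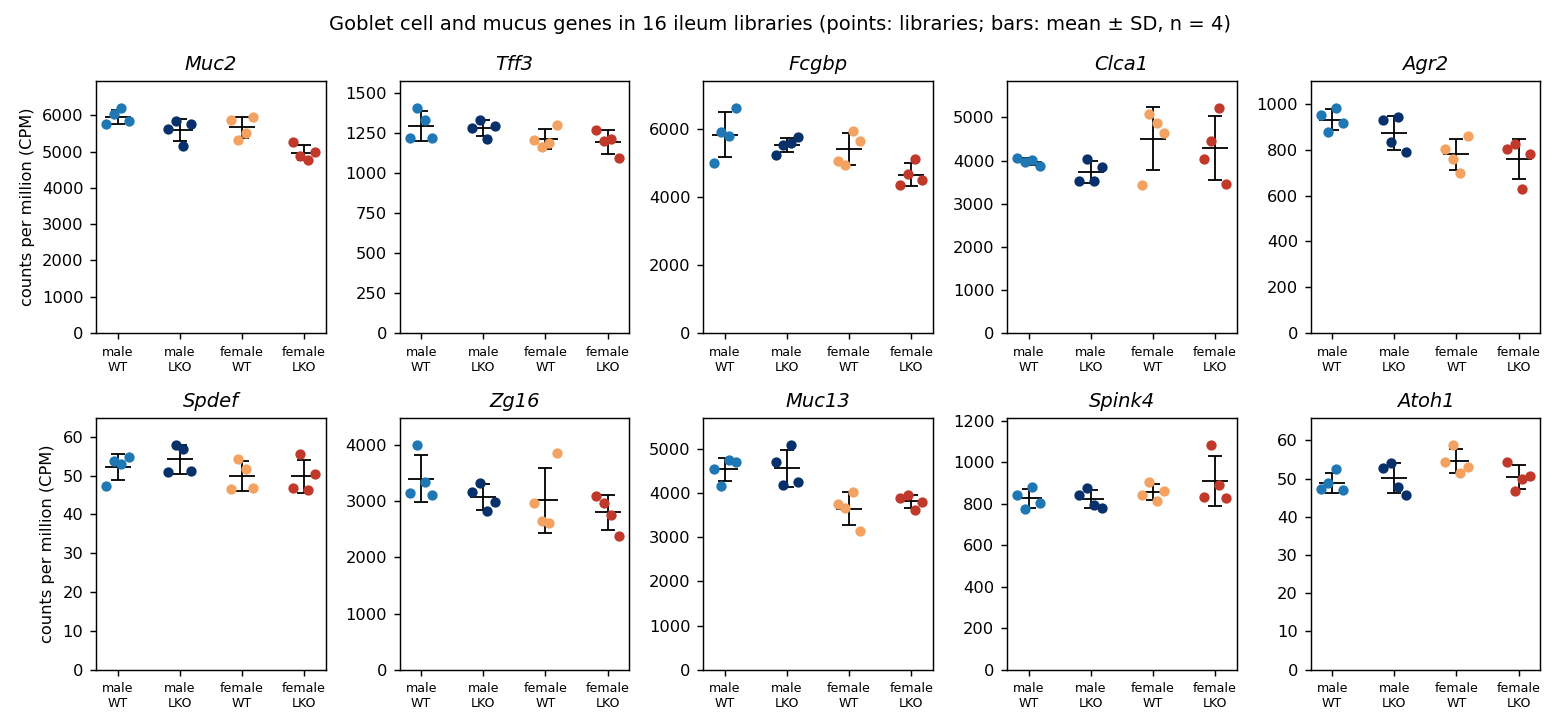
Each panel plots 1 gene, with CPM (linear axis from 0) on the vertical axis and the 4 groups on the horizontal axis; points are libraries, and bars are the mean and SD of 4 libraries. The ranges of the groups overlap in most panels, the Muc2 values of female LKO (4771 to 5256 CPM) lie below those of female WT (5333 to 5957 CPM), and Muc13 lies higher in male WT (4156 to 4735 CPM) than in female WT (3137 to 4025 CPM).

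The first question was whether loss of Bcl6 in hepatocytes goes with a change of these genes in the ileum of males. Of the 10 members, 0 passed the threshold: 0 of 10 had an adjusted p below 0.05 in edgeR's quasi-likelihood test, where 0.0527% of all genes tested did (8 of 15169), and 0 of 10 did in DESeq2, where 0.416% did. At an unadjusted p below 0.05 the count of members was also 0, against 5.29% of all genes. Of the 10 members, 6 lay below 0 and 4 above, where 50.8% of all genes lay below 0. Under scaling on the epithelial reference genes 8 lay below 0, and the median of all genes was then itself below 0, at -0.0354. The groups overlapped for all 10, where 2.95% of all genes showed no overlap. The median size of their log2 fold changes was 0.0654, against 0.0768 over all genes tested. In bulk tissue, fewer goblet cells and less RNA per goblet cell cannot be told apart, so a level here is that of the whole segment.

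Muc2 stood at 5755, 6032, 6202 and 5837 CPM in the 4 male WT libraries and at 5631, 5852, 5143 and 5750 CPM in the 4 male LKO libraries. The ranges overlapped through 1 male LKO library, and the other 3 lay below all 4 WT libraries. The log2 fold change was -0.09 (SE 0.0646, edgeR adjusted p = 0.999), which is a change of -5.72% with a 95% interval from -14.3% to 3.71%. Zg16 gave the largest male value, at 3144, 4001, 3338 and 3116 CPM in WT and 3164, 3329, 2816 and 2978 CPM in LKO, and 2 of the 4 LKO libraries lay below all WT libraries while the other 2 lay inside the WT range. Its log2 fold change was -0.14 (SE 0.0849, edgeR adjusted p = 0.999). Clca1 and Agr2 gave -0.08 and -0.09 with standard errors of 0.0667 and 0.0731, and the other 6 members lay between -0.07 and 0.06.

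The same question in females gave 0 of 10 members with an adjusted p below 0.05 in edgeR, where 0.0392% of all genes had one (6 of 15298), and 0 of 10 in DESeq2, where 1.35% did. At an unadjusted p below 0.05, 2 of 10 members were lower in female LKO, Muc2 and Fcgbp, against 11.7% of all genes in either direction and 6.75% lower. Below 0 lay 8 of 10 members, where 48.2% of all genes did, and Muc13 and Spink4 lay above. Under scaling on the epithelial reference genes all 10 lay below 0, but that scaling moved the median of all genes to -0.0889. The median size of the members' log2 fold changes was 0.0783, against 0.105 over all genes.

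Muc2 read 5870, 5333, 5519 and 5957 CPM in female WT and 5256, 4878, 4771 and 4997 CPM in female LKO. Every female LKO library was below every female WT library, a separation that 6.31% of all genes tested showed in one direction or the other and 3.28% in this one. Of the 10 members it was the only one. The means were 5670 ± 293 CPM and 4976 ± 209 CPM (SD, n = 4), or -0.19 on the log2 scale (SE 0.0705, edgeR adjusted p = 0.348, DESeq2 adjusted p = 0.0889). Its 95% interval ran from -0.34 to -0.03.

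Fcgbp read 5064, 4928, 5918 and 5646 CPM in female WT and 4336, 4675, 5108 and 4483 CPM in female LKO. Its groups overlapped, since the highest female LKO library exceeded 2 of the female WT libraries. The log2 fold change was -0.21 (SE 0.0844, edgeR adjusted p = 0.367). Atoh1 read 54.4, 58.8, 51.5 and 53.1 CPM in female WT and 54.4, 46.8, 49.8 and 50.7 CPM in female LKO, or -0.11 on the log2 scale (SE 0.0669, edgeR adjusted p = 0.536). Spdef, the other fate factor, had a fold change well within its standard error in females, and the other 7 members, Spdef included, lay between -0.11 and 0.09.

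The libraries of females also differed in neighbouring tissue. The B cell and follicle list summed to 26.6 to 384 CPM in female LKO and to 21.2 to 66.9 CPM in female WT. Female LKO replicates 1 and 4, at 28.15 and 26.56 CPM, lay inside the WT range. Of its 7 tested genes 7 lay above 0 in LKO and 0 had an unadjusted p below 0.05. The cecum and colon list summed to 27.2 to 78.7 CPM in LKO and 38.9 to 978 CPM in WT. Without the follicle-rich libraries (female LKO 2 and 3, female WT 3) the Muc2 log2 fold change was -0.16, and without the libraries rich in cecum and colon markers (female WT 1 and 4) it was -0.13, against -0.19 with all libraries. Fcgbp gave -0.24 and -0.22 in the same fits, and in the second fit 0 of 10 members had an unadjusted p below 0.05. The part of these markers in the result was not tested beyond this.

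**Figure D2:**
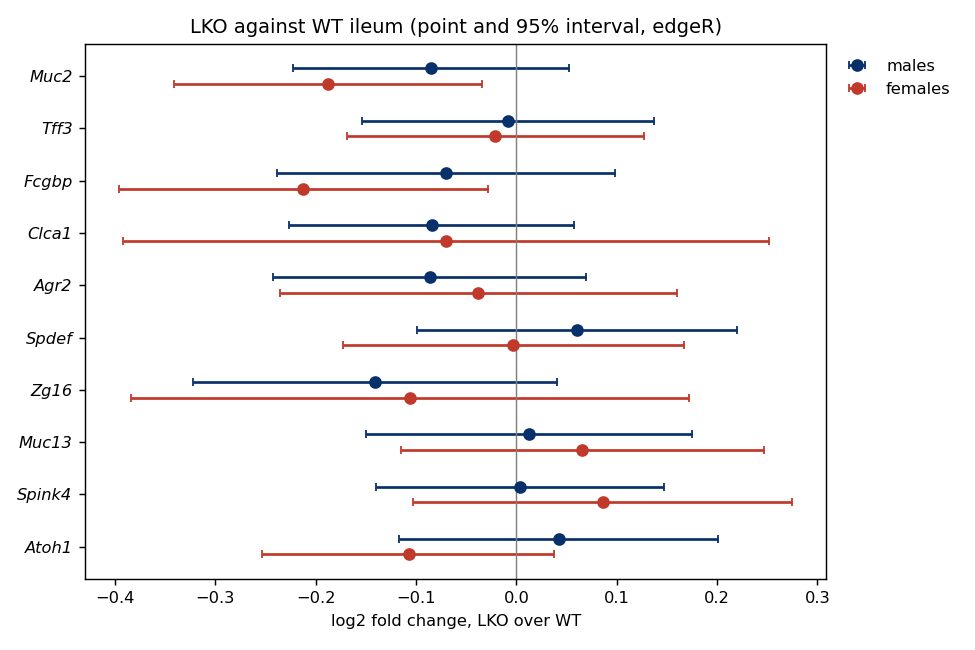
Log2 fold change of LKO over WT (horizontal axis, linear) for each of the 10 members (vertical axis), with males in dark blue and females in red; points are edgeR estimates and bars their 95% intervals. All 10 male intervals include 0, and among females those of Muc2 and Fcgbp do not, before adjustment over all genes.

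Whether the response differed between the sexes was tested directly as an interaction, and 0 of 10 members passed, as did 0% of the 15598 genes tested by edgeR and 0 genes by DESeq2. At an unadjusted p below 0.05 the count was 0 of 10 members, against 5.64% of all genes. The largest interaction values were 0.14 for Atoh1 (SE 0.0977), 0.14 for Fcgbp (SE 0.115) and 0.10 for Muc2 (SE 0.0859), each the male minus the female log2 fold change. The female and male values of Muc2 are thus not shown to differ. With both sexes in 1 fit, 0 of 10 members had an adjusted p below 0.05 in edgeR (0.269% of all genes did), and 1 of 10, Muc2, did in DESeq2 (1.83% of all genes did). Muc2 was -0.14 (SE 0.0426, edgeR adjusted p = 0.179, DESeq2 adjusted p = 0.03), a change of the mean from 5813 to 5285 CPM. Fcgbp was -0.14 (SE 0.0579, edgeR adjusted p = 0.329), and it and Muc2 were the 2 of 10 members with an unadjusted p below 0.05, against 11.2% of all genes in either direction and 6.57% lower. Without the libraries rich in cecum and colon markers that count was 0 of 10. Below 0 lay 7 of 10, where 49.8% of all genes did. Under scaling on the epithelial reference genes 10 of 10 did, with the median of all genes then at -0.0616. Zg16 followed at -0.13 (SE 0.0795).

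The sexes were also compared within a genotype. Among WT mice, 0 of 10 members had an adjusted p below 0.05 in edgeR, where 0.25% of all genes did, and 1 of 10, Muc13, did in DESeq2, where 1.72% did. At an unadjusted p below 0.05 stood 3 of 10, against 13.9% of all genes: Muc13 and Agr2 were higher in males (6.21% of all genes were) and Atoh1 lower (7.72% were). Clca1 leaned the same way as Atoh1, at -0.19 (SE 0.104).

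Muc13, a mucin anchored in the apical membrane rather than secreted, read 4531, 4156, 4735 and 4708 CPM in male WT and 3749, 3666, 4025 and 3137 CPM in female WT. All 4 male libraries exceeded all 4 female ones, a separation shown by 8.38% of all genes in either direction and 4.47% in this one. The log2 fold change of male over female was 0.31 (SE 0.0839, edgeR adjusted p = 0.151, DESeq2 adjusted p = 0.0202). Agr2 read 950, 876, 982 and 919 CPM in male WT and 802, 760, 701 and 862 CPM in female WT, again without overlap, at 0.25 on the log2 scale (SE 0.076, edgeR adjusted p = 0.194). Atoh1 read 47.3, 48.8, 52.4 and 46.9 CPM in male WT against 54.4, 58.8, 51.5 and 53.1 CPM in female WT, where 1 male library lay inside the female range, and its log2 fold change was -0.17 (SE 0.0696, edgeR adjusted p = 0.306).

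Among LKO mice, 0 of 10 members had an adjusted p below 0.05 in edgeR (0.0984% of all genes did), and 2 of 10, Fcgbp and Muc13, did in DESeq2 (6.93% of all genes did). Higher in males at an unadjusted p below 0.05 were 4 of 10, Fcgbp, Muc13, Muc2 and Agr2, against 22.6% of all genes in either direction and 10.9% higher. Fcgbp read 5226, 5521, 5580 and 5744 CPM in male LKO against the female LKO values given above, and all 4 male libraries were higher, a separation shown by 12.9% of all genes in either direction and 6.43% in this one. The same held for the 4 male Muc13 values of 4691, 4175, 5089 and 4256 CPM against 3895, 3954, 3613 and 3791 CPM in females. Their log2 fold changes were 0.24 (SE 0.0671, edgeR adjusted p = 0.0914) and 0.25 (SE 0.0719, edgeR adjusted p = 0.0952). Muc2 followed at 0.17 (SE 0.0643) and Agr2 at 0.20 (SE 0.0888). The WT and the LKO comparison of the sexes share no library, and the 4 values of Muc13 and Agr2 that they give are all above 0. This is not particular to these 2, since the same 7 of 10 members lay above 0 in both comparisons. Clca1, Spink4 and Atoh1 lay below 0 in both.

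The segments of males and females differed in composition beside these values. Of the 12 epithelial reference genes, 12 lay above 0 in WT males relative to WT females, with a median log2 fold change of 0.116, and of 10 smooth muscle markers, 10 lay below 0, with a median of -0.294. The smooth muscle list summed to 4388 to 4705 CPM in male WT and 4753 to 6883 CPM in female WT. Of 10 Paneth cell markers, 10 lay below 0 in WT males, with a median of -0.618. In edgeR 3 were called lower, where 0.25% of all genes were called in either direction, and in DESeq2 8 were, where 1.72% were. The Paneth list summed to 12110 to 14590 CPM in male WT and 15890 to 22510 CPM in female WT. In LKO males relative to LKO females, 10 of 10 smooth muscle markers lay below 0, with a median of -0.391, and so did 6 of 6 tested B cell and follicle markers. DESeq2 called 7 and 6 of them, where it called 6.93% of all genes. EdgeR called 0 of either list, where it called 0.0984% of all genes. At an unadjusted p below 0.05 stood 9 of 10 and 6 of 6, where 22.6% of all genes did in either direction. With libraries scaled on the epithelial reference genes instead, the median of all genes moved by -0.196 on the log2 scale, Muc13 was 0.11 and Agr2 0.05 in the WT comparison, and Clca1, Spink4 and Atoh1 were lower in males with an adjusted p below 0.05, as were 1720 of all 15229 genes. In the LKO comparison the same scaling gave 0.10 for Fcgbp, 0.12 for Muc13, 0.03 for Muc2 and 0.07 for Agr2. In the WT comparison without the libraries rich in cecum and colon markers, Muc13 was 0.17 and Agr2 0.32.

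**Figure D3:**
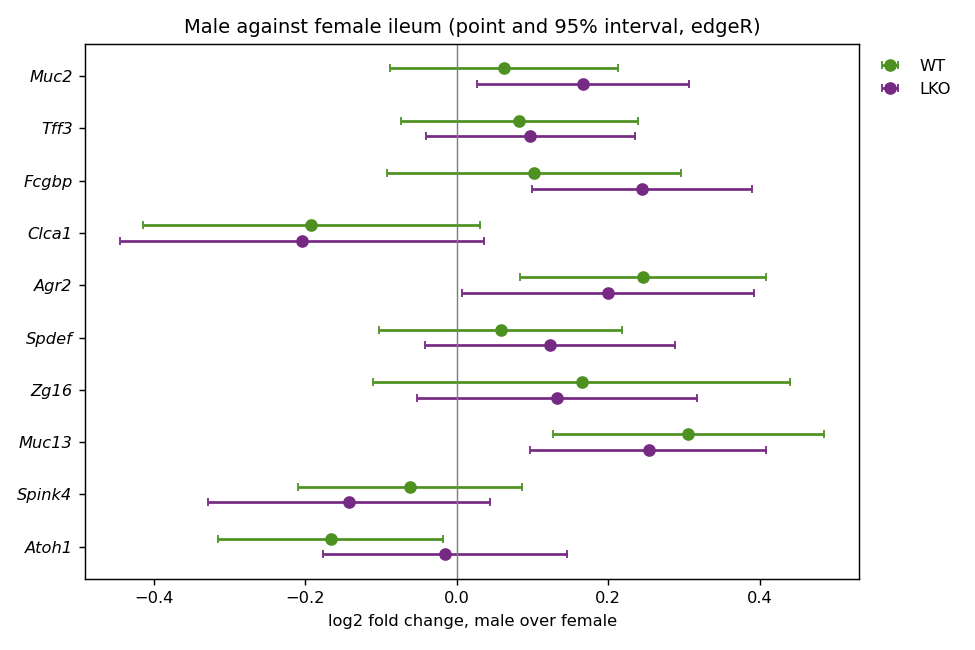
Log2 fold change of males over females (horizontal axis, linear) for each of the 10 members (vertical axis), within WT in green and within LKO in purple; points are edgeR estimates and bars their 95% intervals. Every member lies on the same side of 0 in both genotypes. Muc13 and Agr2 lie above 0 (Muc13 0.31 and 0.25, Agr2 0.25 and 0.20). Clca1 lies below 0 (-0.19 and -0.20), with intervals that include 0.

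The members also differed in how much they varied between mice of a group. Muc2 was the steadiest, with a pooled SD within groups of 0.0679 on the log2 scale, followed by Tff3 at 0.0824 and Atoh1 at 0.091. Clca1 and Zg16 varied most, at 0.186 and 0.183. Clca1 read 3441 CPM in female WT replicate 1 and 4631 to 5091 CPM in the other 3 female WT libraries, while in male WT all 4 libraries fell between 3863 and 4069 CPM. Zg16 read 3847 CPM in female WT replicate 4 and 2608 to 2962 CPM in the other 3. The median coefficient of variation over 16 libraries was 9.88% for the members, 12.2% for all genes tested and 8.17% for the genes at least as abundant as Atoh1.

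Members did not vary as a block. Over the 16 libraries, which include the group differences above, the 45 pairs had a median Pearson r of log2 CPM of 0.111, and 18 pairs were below 0. Tff3 and Zg16 were the closest pair, at r = 0.89 (Spearman rho 0.921), and r was 0.892 after each group's mean was subtracted. Muc2 was most like Zg16 at r = 0.687, while Fcgbp was most like Muc2 at r = 0.612 but gave -0.0521 once group means were subtracted. Agr2 and Muc13 paired at r = 0.633, which fell to 0.205 after the group means were subtracted. Clca1 ran against Agr2 at r = -0.588, the lowest of the pairs, and was most like Spink4 at r = 0.42. Spdef and Atoh1, the 2 fate factors, gave r = -0.156. Libraries share depth and tissue make-up across genes, so these values describe the libraries only.

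**Figure D4:**
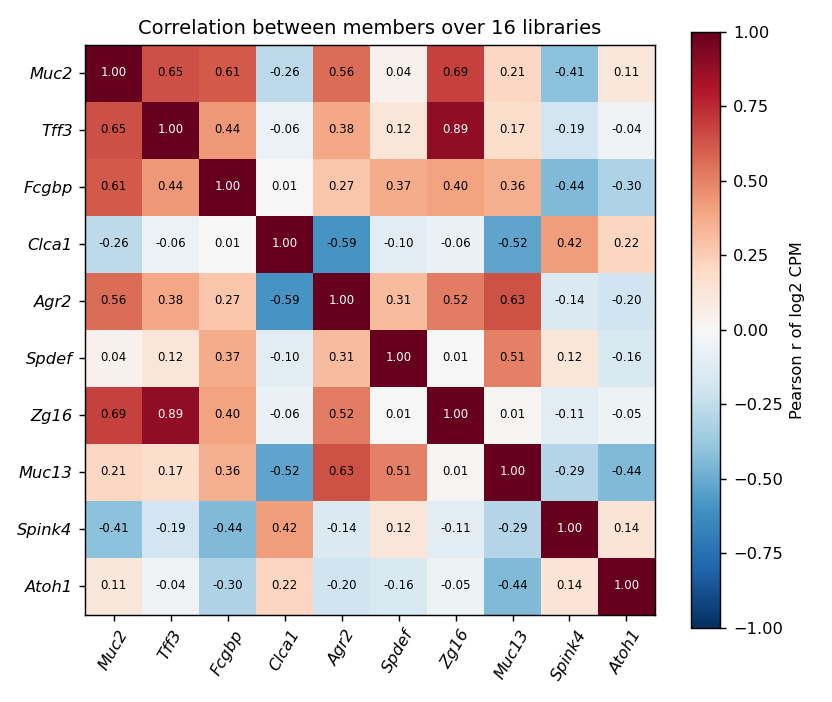
Pearson r of log2 CPM (prior count 2) between each pair of the 10 members over 16 libraries, with red above 0 and blue below 0 and the value printed in each cell. All cells among Muc2, Tff3, Fcgbp, Agr2 and Zg16 are red and include the closest pair, Tff3 and Zg16 (r = 0.89), and Clca1 is blue against Agr2 (r = -0.588).

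Among 14413 other genes with a mean of at least 1 CPM, those whose pattern over the 16 libraries was most like Muc2 were Rbp7 (r = 0.865), Sestd1 (r = 0.863), B4galnt2 (r = 0.851), Vwa2 (r = 0.846) and Akr1c14 (r = 0.844). With group means subtracted their r lay between 0.473 and 0.683, and the 5 genes most like Muc2 were then others: Sdc4 (r = 0.93), Paip2 (r = 0.895), Tgif1 (r = 0.887), Hbp1 (r = 0.851) and Map3k12 (r = 0.849). B4galnt2, the enzyme that adds the terminal GalNAc of the Sda antigen to intestinal glycans, read 1149, 1177, 1107 and 1058 CPM in male WT, 1095, 1009, 968 and 969 CPM in male LKO, 1044, 882, 1051 and 942 CPM in female WT, and 923, 798, 744 and 816 CPM in female LKO. Its group means ran from WT males down through LKO males and WT females to LKO females, where Muc2 had WT females above LKO males.

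The mucin is made functional by enzymes that attach and extend its O-glycans, and 14 of 15 such genes were tested. In females, 0 of 14 had an adjusted p below 0.05 in edgeR, 2 did in DESeq2, and 7 of 14 were lower in LKO at an unadjusted p below 0.05, where 6.75% of all genes were lower and DESeq2 called 1.35% of all genes, with 12 of 14 below 0 and a median of -0.165 against 0.00703 over all genes. Galnt5 and Galnt7, which start O-glycan chains by adding GalNAc, were the 2 that DESeq2 called. Galnt7 read 149, 137, 158 and 145 CPM in female WT and 118, 107, 112 and 133 CPM in female LKO, without overlap, at -0.33 on the log2 scale (SE 0.0757, edgeR adjusted p = 0.194, DESeq2 adjusted p = 0.0171).

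Galnt5 read 15, 14.7, 16.6 and 14.8 CPM in female WT and 11.2, 11.8, 11.7 and 12.1 CPM in female LKO, also without overlap, at -0.38 (SE 0.0865, edgeR adjusted p = 0.189, DESeq2 adjusted p = 0.0231). Galnt4, of the same enzyme family, gave -0.36 (SE 0.105) and B4galnt2 -0.26 (SE 0.083). In males 0 of 14 passed in either tool, and 2 of 14 were lower at an unadjusted p below 0.05, where 5.29% of all genes had such a p in either direction: Galnt12 at -0.14 (SE 0.0646) and B4galnt2 at -0.15 (SE 0.0661). The male median was 0.0292, and C1galt1c1, the chaperone of the core 1 enzyme, was at 0.11 (SE 0.0668).

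The interaction of genotype and sex was above 0 at an unadjusted p below 0.05 for 5 of the 14 (5.64% of all genes had such a p in either direction), Galnt4, Galnt5, Gcnt3, Galnt7 and C1galt1c1, and none of these passed the adjustment (edgeR adjusted p = 0.845 for each). The female count of 7 fell to 2 of 14 without the follicle-rich libraries and to 4 of 14 without the libraries rich in cecum and colon markers, or without female WT replicate 1. The median stayed below 0 in these fits, at -0.138, -0.176 and -0.173. In LKO males relative to LKO females, 9 of 14 were higher and 2 lower at an unadjusted p below 0.05 (10.9% of all genes were higher), 5 passed in DESeq2 (6.93% of all genes did) and 0 in edgeR, and the median was 0.309; the count of 9 higher was 5 without the follicle-rich libraries and 5 under scaling on the epithelial reference genes.

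**Figure D5:**
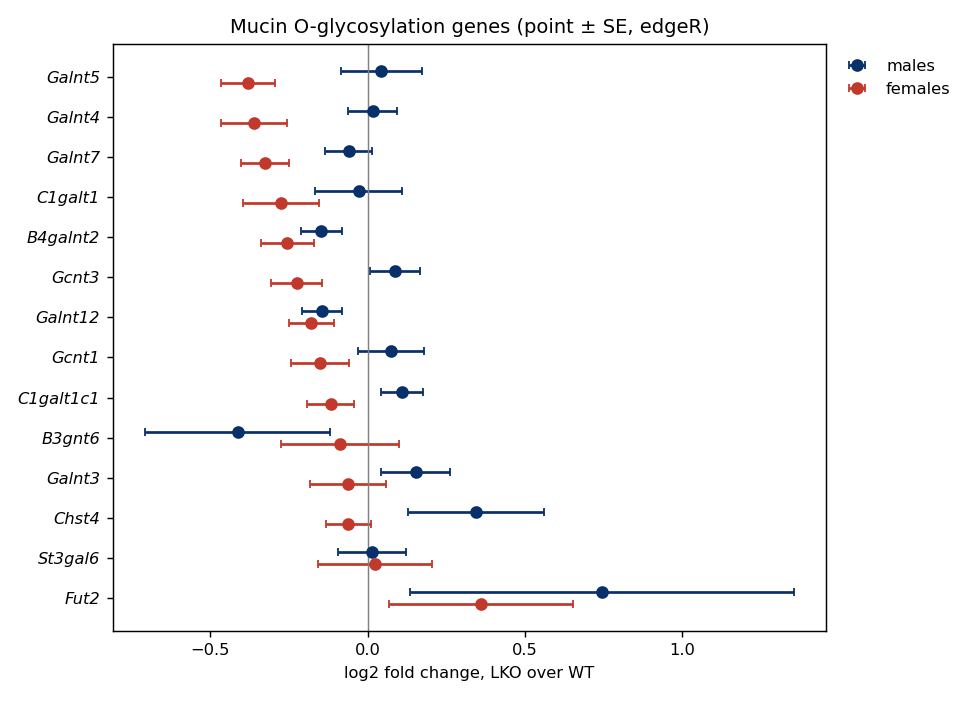
Log2 fold change of LKO over WT (horizontal axis, linear) for the 14 tested mucin O-glycosylation genes (vertical axis, ordered by the female value), with males in dark blue and females in red; points are edgeR estimates and bars their SE. Of the 14 female points 12 lie below 0, led by Galnt5 (-0.38), while the male points lie on both sides (5 below 0 and 9 above).

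A list of other secreted mucins, trefoil factors and further goblet cell genes, not all of them for secreted proteins, came next. Of the 14 listed, 9 were tested, and 0 of 9 had an adjusted p below 0.05 in edgeR in either sex. In females 4 of 9 were lower at an unadjusted p below 0.05, where 6.75% of all genes were: Hepacam2 at -0.30 (SE 0.0722, DESeq2 adjusted p = 0.0278), Klk1, a tissue kallikrein, at -0.30 (SE 0.0773), Bcas1 at -0.25 (SE 0.0739) and Reg4, a C-type lectin, at -0.48 (SE 0.164). Hepacam2 read 119, 107, 131 and 117 CPM in female WT and 105, 90.7, 94.8 and 94.5 CPM in female LKO, so its groups did not overlap. In males 1 of 9, Ccl6, was higher at an unadjusted p below 0.05, where 5.29% of all genes had one in either direction. Its log2 fold change was 0.26 (SE 0.0857, edgeR adjusted p = 0.653). Klk1 was at -0.25 (SE 0.115) and Tpsg1 at -0.09 (SE 0.111) in males. The gastric and airway mucins Muc5ac, Muc5b and Muc6 and the trefoil factors Tff1 and Tff2 were at or near 0, with group means no higher than 0.103 CPM.

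Besides Muc13, 3 membrane mucins were tested, and 0 of 3 had an unadjusted p below 0.05 for genotype in either sex. Of all genes, 5.29% in males and 11.7% in females had one in either direction. Muc4 was at -0.15 (SE 0.219) in males and -0.24 (SE 0.138) in females. Muc20 read 15.8, 12.1, 19.1 and 22.2 CPM in male WT and 11.7, 11.6, 13.1 and 9.27 CPM in female WT, with 1 male library inside the female range, or 0.60 on the log2 scale (SE 0.167, edgeR adjusted p = 0.174, DESeq2 adjusted p = 0.0376), and Muc4 was at 0.52 (SE 0.219) in the same comparison. In LKO mice the values were 0.50 (SE 0.111) for Muc20 and 0.61 (SE 0.129) for Muc4, with DESeq2 adjusted p-values of 0.00605 and 0.00112 and edgeR adjusted p-values of 0.0689 and 0.0708.

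For folding and secretion, 14 of 16 listed genes were tested and 0 of 14 passed in either tool for genotype in either sex. In female LKO, 3 of 14 were lower at an unadjusted p below 0.05, where 6.75% of all genes were: Slc12a2, the basolateral chloride importer, at -0.23 (SE 0.0855), Ern2, the goblet cell sensor of misfolded protein (IRE1 beta), at -0.27 (SE 0.11), and Creb3l4 at -0.16 (SE 0.0671). In males 1 of 14 was higher at an unadjusted p below 0.05, where 5.29% of all genes had one in either direction. It was Xbp1, the transcription factor spliced by IRE1 enzymes, at 0.14 (SE 0.0642, edgeR adjusted p = 0.92). Ern2 and Rab27a were at -0.11 (SE 0.0708) and 0.09 (SE 0.074) in males. Of 14 genes of goblet fate, 14 were tested and 0 passed for genotype in either sex and either tool. Of these, 1 of 14, Sox9, was higher in male LKO at an unadjusted p below 0.05 (5.29% of all genes had one in either direction). Sox9, a factor of crypt progenitors and Paneth cells, was at 0.32 (SE 0.0913, edgeR adjusted p = 0.457). It read 23.6, 20.5, 22 and 25.3 CPM in male WT and 28.3, 30.6, 24.9 and 29.8 CPM in male LKO. Its means were 22.8 CPM in male WT, 28.4 in male LKO, 30.7 in female WT and 28 in female LKO. Notch1 was at -0.18 (SE 0.09), Elf3 at 0.15 (SE 0.0766) and Hes1 at 0.14 (SE 0.107) in females, and Notch2 at -0.11 (SE 0.0751) and Elf3 at 0.14 (SE 0.0971) in males.

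Markers of the other secretory cells were read beside the goblet genes. Of 10 Paneth cell markers, 10 were higher in male LKO at an unadjusted p below 0.05, where 5.29% of all genes had such a p in either direction. In edgeR 3 had an adjusted p below 0.05, where 0.0527% of all genes did, and in DESeq2 7 did, where 0.416% did. The median log2 fold change of the 10 markers was 0.458, where that of the 10 goblet members in the same comparison was -0.0394. The Paneth list summed to 12110 to 14590 CPM in male WT and to 18230 to 21500 CPM in male LKO. In females 0 of 10 Paneth markers had an unadjusted p below 0.05, where 11.7% of all genes did in either direction, and the median was 0.141. The sexes are not shown to differ in this: the interaction had 0 of 10 markers called by edgeR and 0 by DESeq2. At an unadjusted p below 0.05 stood 5 of 10, where 5.64% of all genes did in either direction. The Paneth sum of male WT was the one below those of the other 3 groups. Of 10 enteroendocrine markers, 1 was lower in males and 3 in females at an unadjusted p below 0.05, with medians of -0.119 and -0.162. In males 5.29% of all genes had such a p in either direction, and in females 6.75% were lower. Within a sex edgeR called 0 of the 10, and DESeq2 called 0 in males and 2 in females (0.416% and 1.35% of all genes). With both sexes in 1 fit, 5 of 10 were lower at an unadjusted p below 0.05 (6.57% of all genes were). Each tool then called 1 (0.269% of all genes in edgeR and 1.83% in DESeq2).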

How the data were processed

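Poly(A) RNA-seq of 16 ileum segments was analysed from the deposited raw counts per gene. The authors sequenced stranded libraries single-end, aligned them to mm10 with STAR 2.5.2 keeping uniquely mapped reads, and counted exon reads with HOMER 4.10, 1 transcript per gene, without adjustment (tool names also from the submitters' processing notes). The counting's strand option is not given in the sources used here. Groups came from the sample titles; no label states how the animals were sampled beyond this, so p-values measure the spread between these samples.

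Each comparison was fitted by edgeR 4.0.16 (R 4.3.3) and read from its quasi-likelihood F-test (TMM scaling, filterByExpr by group, robust fit, Benjamini-Hochberg adjustment over all genes, threshold 0.05). Comparisons of 2 groups used their 8 libraries, and the interaction and both-sexes effect all 16. The study's tool, DESeq2 1.42.0, was an alternative. Fold changes of members were printed singly only where larger than their standard error in the reported fit. RPKM values were computed from the counts with the deposited exon lengths, and correlations used log2 CPM (prior count 2).

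All 10 members are named; genes of 5 goblet lists are named where called or among the 3 smallest p-values per list, genotype comparison and sex. Reg4, Gcnt3, B4galnt2 in females, and genes named for the sex comparisons were chosen after their values were seen. Members and lists were chosen with earlier results of these data known. Alternatives covered scaling, low-count filters, fit options, a replicate block, a title-number covariate and libraries left out.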

Additional observations from a re-analysis of the deposited data

Results flagged for a closer look

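None of the 40 sets of 4 member values had a library far from the other 3 by Dixon's test. When the share of counts and the summed levels of the gene lists were included, 6 of 108 sets did, and all 6 were list sums. The chance rate of 1 in 20 holds for independent sets. These sets come from the same libraries, so the count cannot be judged against that rate. The goblet endoplasmic reticulum and secretion list summed to 3232 CPM in female WT replicate 3, where the next highest female WT library had 2862 CPM. The B cell and follicle list summed to 116.9 CPM in male WT replicate 2, next to 24 CPM at most in the other male WT libraries, and to 66.9 CPM in female WT replicate 3, next to 26.3 CPM at most. The T cell and intraepithelial lymphocyte list summed to 207.2 CPM in male LKO replicate 4, above a next value of 186.8 CPM, and to 170.2 CPM in female WT replicate 4, below a next value of 278 CPM. The cecum and colon list summed to 1217 CPM in male LKO replicate 2, where the next male LKO library had 41.9 CPM.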

How the results depend on the processing

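The count of members with an adjusted p below 0.05 was 0 of 10 under every alternative for the genotype comparisons within males and within females and for the interaction. With both sexes together it was 1 under DESeq2 and 1 under scaling on the epithelial reference genes, Muc2 each time. In WT males against females it was 1 under DESeq2 (Muc13) and 3 under that scaling (Clca1, Spink4 and Atoh1), and in LKO it was 2 under DESeq2 (Fcgbp and Muc13). Leaving out each library in turn gave 0 in every comparison. With the replicate block the count of members was 0 in every comparison, while the count of all genes went from 8 to 16 in males, 6 to 15 in females, 42 to 16 with both sexes, 38 to 42 in WT and 15 to 22 in LKO. The deviations of 16 same-numbered pairs correlated between -0.104 and 0.256. The 2 pairs over 0.1, at 0.178 and 0.256, were both of female LKO and female WT. Whether same-numbered samples share more than a number was not tested beyond this. Counts of all genes ran from 3 to 63 in males, 0 to 155 in females, 0 to 1 for the interaction, 2 to 224 with both sexes, 9 to 1736 in WT and 1 to 1016 in LKO across the settings, and in WT the epithelial scaling called 16 higher and 1720 lower in males against 15 and 23 in the reported fit.

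Of the 31 member fold changes larger than their standard error, 8 took the other sign under some alternative, and of the 29 smaller ones 25 did. Scaling on the epithelial reference genes gave -0.113 for Tff3, -0.0864 for Fcgbp and -0.0258 for Zg16 in WT males over females, and -0.0416 for Tff3, -0.00899 for Spdef and -0.00566 for Zg16 in LKO. The title number as a covariate gave 0.0508 for Agr2 in males. Among males every WT title number is lower than every LKO one, so that fit cannot fully separate number from genotype. Leaving out the cecum- and colon-marker-rich libraries, chosen after the data were seen like the follicle-rich ones, gave 0.0108 for Agr2 with both sexes and -0.00131 for Fcgbp in WT. The cause was not tested. Muc2 in females stayed between -0.217 and -0.166 when each library was left out, and between -0.284 and -0.125 over the other settings. The lowest member count was 765, and with 4 libraries a group the intervals, such as -14.3% to 3.71% for Muc2 in males, set what could be seen.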
